A study of Homo sapiens with 3 samples.

Results

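MYC occupancy was examined at 34 genes that encode the machinery of RNA polymerases I and III, 14 in the Pol I part and 20 in the Pol III part, out of 19970 protein-coding genes on chromosomes 1 to 22 and X. The members are a list of polymerase subunits and general transcription factors, chosen with earlier results of these data known. Each was given all peaks whose summit lay inside its RefSeq span or within 5000 bp of it. This took in 31 of the 9818 peaks of the series, and no peak was taken by more than 1 member. The assay was ChIP-Rx, in which foreign chromatin is mixed in as a reference before immunoprecipitation and sequencing, and the cells were the parental line U2OS, derived from a human osteosarcoma. The series has 2 libraries immunoprecipitated with an anti-MYC antibody, called biological replicates by its design, and 1 input library without antibody. In each, U2OS cells and mouse NIH3T3 fibroblasts, added at 10%, had been fixed with 1% formaldehyde for 10 min before shearing. The processed values analysed are those of 1 deposited peak list with no values per library, so no value below has a replicate error, the depth is unknown and no comparison is tested. A list of MYC peaks holds no expression marker against which the U2OS label could be checked.

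RNA polymerase I transcribes the precursor of the large ribosomal RNAs in the nucleolus. It is brought to the ribosomal DNA promoter by the HMG-box protein UBTF, by SL1, a complex of TBP with the TAF1 proteins, and by RRN3, which makes the enzyme competent to initiate. RNA polymerase III makes 5S ribosomal RNA, tRNAs and other small RNAs, and is placed by TFIIIB and TFIIIC, with GTF3A added at 5S genes and MAF1 as a repressor. MYC is a bHLH-zipper protein that binds E-boxes as a dimer with MAX and is known for raising ribosome and tRNA production. The values here concern MYC at the protein-coding genes of the machinery. Binding to ribosomal DNA or tRNA genes themselves was not analysed here.

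The promoters that carry the main observations are shown first. They are the 3 members of each part with the highest −log10 q-value at a start and a RefSeq window, and then 2 members, UBTF and POLR3GL, with no peak. Each is the sense strand from 250 bases before to 50 bases after the RefSeq start (GRCh38.p14), 5′ to 3′, at the start nearest to the summit, or the first listed start where there is no peak. Capitals mark the canonical E-box CACGTG, its CG-rich variant CACGCG or CGCGTG, and the variant CATGTG or CACATG.
TAF1D (chr11:93741446-93741745, minus strand): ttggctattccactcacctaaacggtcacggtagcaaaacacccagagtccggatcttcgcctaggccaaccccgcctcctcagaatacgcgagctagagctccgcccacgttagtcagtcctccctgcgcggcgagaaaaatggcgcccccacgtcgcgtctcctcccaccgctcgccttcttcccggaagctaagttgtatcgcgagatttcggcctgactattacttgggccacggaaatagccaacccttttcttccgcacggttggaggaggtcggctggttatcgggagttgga
POLR1B (chr2:112542215-112542514, plus strand): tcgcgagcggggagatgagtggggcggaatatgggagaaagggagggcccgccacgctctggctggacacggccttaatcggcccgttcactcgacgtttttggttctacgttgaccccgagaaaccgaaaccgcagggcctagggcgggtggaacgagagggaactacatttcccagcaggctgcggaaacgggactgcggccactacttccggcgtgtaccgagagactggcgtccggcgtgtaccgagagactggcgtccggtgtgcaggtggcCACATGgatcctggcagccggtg
POLR1G (chr19:45406394-45406693, plus strand): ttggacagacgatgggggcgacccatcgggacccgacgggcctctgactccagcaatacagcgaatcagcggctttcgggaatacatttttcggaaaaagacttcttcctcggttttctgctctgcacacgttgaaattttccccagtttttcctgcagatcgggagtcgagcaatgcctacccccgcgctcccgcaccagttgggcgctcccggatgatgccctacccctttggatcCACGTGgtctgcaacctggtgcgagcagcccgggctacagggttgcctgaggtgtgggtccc
GTF3C2 (chr2:27356715-27357014, minus strand): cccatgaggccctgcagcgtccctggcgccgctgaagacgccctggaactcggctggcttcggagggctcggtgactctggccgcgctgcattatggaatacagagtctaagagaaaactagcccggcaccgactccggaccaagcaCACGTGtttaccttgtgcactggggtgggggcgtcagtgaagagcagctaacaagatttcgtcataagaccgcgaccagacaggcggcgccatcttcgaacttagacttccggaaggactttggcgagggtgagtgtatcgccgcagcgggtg
GTF3C4 (chr9:132669785-132670084, plus strand): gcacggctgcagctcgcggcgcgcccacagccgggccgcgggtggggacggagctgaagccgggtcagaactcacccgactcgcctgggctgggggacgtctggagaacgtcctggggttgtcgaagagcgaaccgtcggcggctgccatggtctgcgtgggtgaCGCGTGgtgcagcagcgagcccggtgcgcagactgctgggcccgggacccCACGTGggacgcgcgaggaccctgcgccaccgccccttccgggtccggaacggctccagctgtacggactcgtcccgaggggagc
GTF3C6 (chr6:110958456-110958755, plus strand): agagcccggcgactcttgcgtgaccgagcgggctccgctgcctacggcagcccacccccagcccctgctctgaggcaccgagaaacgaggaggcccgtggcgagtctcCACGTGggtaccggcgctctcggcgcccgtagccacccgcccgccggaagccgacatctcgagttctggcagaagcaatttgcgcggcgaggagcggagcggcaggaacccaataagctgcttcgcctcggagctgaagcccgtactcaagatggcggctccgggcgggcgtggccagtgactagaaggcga
UBTF (chr17:44220833-44221132, minus strand): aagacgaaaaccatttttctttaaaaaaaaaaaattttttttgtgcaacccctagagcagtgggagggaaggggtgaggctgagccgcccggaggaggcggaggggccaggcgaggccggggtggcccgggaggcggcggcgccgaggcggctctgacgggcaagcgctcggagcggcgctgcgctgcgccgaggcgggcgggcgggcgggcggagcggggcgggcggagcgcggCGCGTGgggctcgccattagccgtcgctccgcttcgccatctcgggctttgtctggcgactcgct
POLR3GL (chr1:145964440-145964739, plus strand): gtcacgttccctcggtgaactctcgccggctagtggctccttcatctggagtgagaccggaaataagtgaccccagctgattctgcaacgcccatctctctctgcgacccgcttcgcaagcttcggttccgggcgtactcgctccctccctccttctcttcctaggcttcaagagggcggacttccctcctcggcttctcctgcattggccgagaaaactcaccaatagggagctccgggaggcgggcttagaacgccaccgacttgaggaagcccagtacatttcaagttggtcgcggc
POLR1G, GTF3C2, GTF3C4 and GTF3C6 hold the canonical E-box in these windows, GTF3C4 and UBTF hold the CG-rich variant, POLR1B holds only CACATG, and TAF1D and POLR3GL hold none of these words. The summit of GTF3C2 lay 305 bp upstream of the start, outside its printed window and 204 bp from its E-box.

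MYC summits lay at most of these genes and close to their starts. By the 5000 bp rule 28 of 34 members (82.4%) had a peak, 11 of 14 in the Pol I part and 17 of 20 in the Pol III part, where 47.7% of all protein-coding genes did. The set of all protein-coding genes was not limited to those expressed in U2OS. Of the 7 subunits of polymerase II alone, 6 had a peak by the same rule (85.7%). The same 28 members had a summit within 1000 bp of a start, where 39.0% of all protein-coding genes did. A start is that of RefSeq for the 29 members found in the promoter table, and either annotated end of the gene for the other members. The 6 members without a peak were POLR1H, RRN3 and UBTF in the Pol I part and POLR3GL, BRF2 and BDP1 in the Pol III part. The median length of a member was 26358.5 bp, against 24190 bp over all protein-coding genes.

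Fold enrichment is the authors' ratio of IP over control at the summit, on a linear scale, and the −log10 q-value is theirs as well. Both describe single peaks of the list. For peaks at a start, the median fold was 14.1 for the 11 Pol I members and 16.8 for the 17 Pol III members, against 8.35 over the 7785 protein-coding genes with such a summit. The median −log10 q-value was 100.4 in the Pol I part and 146.6 in the Pol III part, against 56.1 over those genes. Folds of the Pol I members ran from 6.99 to 17.7, and those of the Pol III members from 5.28 to 31.9, so the lower ends of both parts lay inside or below the middle range of all genes. A fold above 17.2, which 10% of all peaks exceed, was reached by 2 of 11 Pol I members and 8 of 17 Pol III members, against 12.6% of all genes with a summit at the start.

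**Figure D1:**
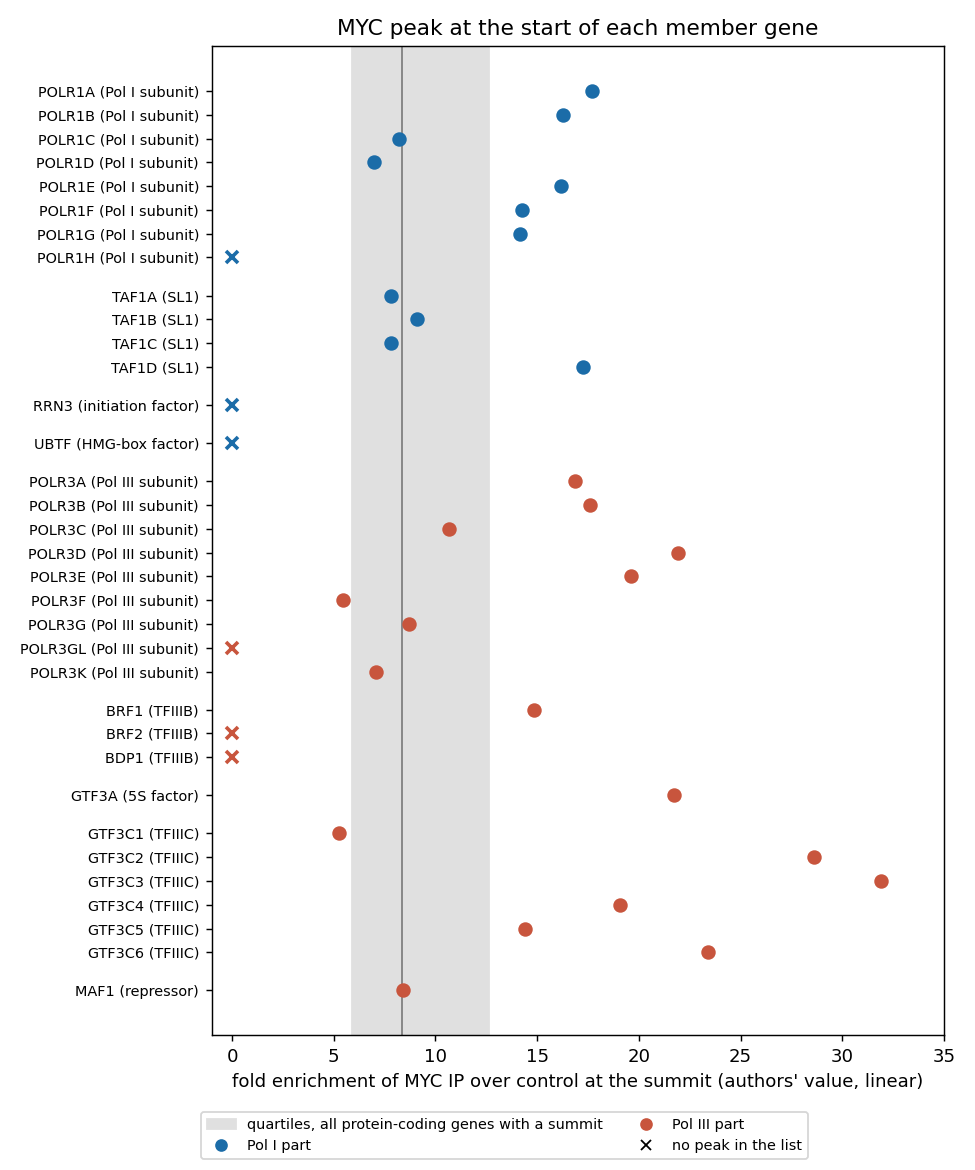
Fold enrichment of MYC IP over control (x axis, linear, the authors' value) at the peak with the highest −log10 q-value within 1000 bp of a start, for each of the 34 members grouped by role; crosses at the left edge are the 6 members with no peak and are not measured folds. The grey band gives the quartiles (5.89 and 12.6) and the line the median (8.35) over all protein-coding genes with such a peak; most TFIIIC genes lie to the right of the band, and 3 of 4 SL1 genes inside it.

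Of the 8 genes for subunits of RNA polymerase I, 7 had a peak at the start. The catalytic core showed high values at both of its genes. POLR1A, which encodes the largest subunit, had a fold of 17.7 and a −log10 q-value of 192.5 at a peak on chromosome 2 from 86105373 to 86106568 (hg38), with the summit 10 bp inside the gene. POLR1B, which encodes the other large subunit, had a fold of 16.3 and a −log10 q-value of 202.5, with the summit 80 bp upstream of the downstream one of its 2 RefSeq starts and 349 bp downstream of the other. A further peak with a fold of 7.59 fell to POLR1B by the rule, 4577 bp beyond the end of the gene, and lay 52 bp from the start of CHCHD5, a mitochondrial protein gene.

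The genes for the subunits that flank the core were similar in fold to POLR1A and POLR1B. POLR1E, homologous to yeast A49, had a fold of 16.2 and the highest −log10 q-value among the Pol I subunits, 243.5, with its summit 9 bp from an annotated end (chromosome 9, 37485421 to 37486264). POLR1F, part of the stalk of the enzyme, had a fold of 14.2 with the summit 10 bp upstream of the start. The −log10 q-value of POLR1F, 91.9, was below those of POLR1A and POLR1B. POLR1G, the partner of POLR1E in a subcomplex at the enzyme's edge, had a fold of 14.1 with the summit 10 bp upstream of the start. Its peak was the widest of all members, at 1807 bp against a median of 980.5 bp for the 28 members and 836 bp over all genes with a peak at the start. In the sequence printed above, the canonical E-box of POLR1G starts 12 bases before the gene start and covers the summit.

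The subunits that both polymerases share had lower folds. POLR1C and POLR1D form a heterodimer on which both enzymes assemble. POLR1C had a fold of 8.19 with the summit 4 bp upstream of its start, and POLR1D a fold of 6.99 and a −log10 q-value of 39.7. Both folds lay below the median of all genes with a summit at the start. The POLR1D summit lay 176 bp downstream of its downstream RefSeq start and 1325 bp downstream of the upstream one, so only the downstream start was within 1000 bp of it.

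All 4 genes for the TAF subunits of SL1, the selectivity factor of ribosomal DNA promoters, had a peak, and 1 of them stood above the rest. TAF1D had a fold of 17.3 and a −log10 q-value of 274.6, the highest in the Pol I part (chromosome 11, 93740624 to 93741929). TAF1B had a fold of 9.11, TAF1C one of 7.83 and TAF1A one of 7.81. Among members with a RefSeq start, the TAF1D summit was also the farthest from the nearest start, 561 bp downstream of it, and lay 738 bp from C11orf54, the gene on the other side of the promoter. The printed TAF1D window, which ends 50 bases after the start, therefore does not reach the summit.

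RRN3 and UBTF, which act with SL1 at the polymerase I promoter, had no peak. RRN3 encodes the initiation factor that joins the enzyme to SL1. The gene lay in a stretch of 4.43 Mb without a summit, with the nearest summit 695316 bp away. UBTF, which coats active ribosomal DNA, had its nearest summit 18401 bp away, near TMUB2, at a fold of 3.1 and −log10 q-value of 9.4. The UBTF promoter printed above holds 1 CG-rich variant starting 15 bases before the start, and that of RRN3 holds 2.

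In the Pol III part 8 of the 9 subunit genes had a peak at the start, with folds between 5.44 and 21.9. POLR3D, which with POLR3E forms a module with roles in initiation and termination, was the highest (fold 21.9, −log10 q-value 411.6), with the summit 198 bp inside the gene from an annotated end (chromosome 8, 22244509 to 22245737). POLR3E had a fold of 19.6, with the summit 235 bp downstream of its start. The genes for the catalytic core followed. POLR3A, the largest subunit, had a fold of 16.8 with the summit 133 bp upstream of the start, and POLR3B, the other large subunit, had a fold of 17.6 with the summit 40 bp downstream of the nearer of 2 starts.

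POLR3A shows a limit of the 5000 bp rule. The higher of its 2 peaks (fold 20.6, −log10 q-value 357.6) lay 4441 bp upstream of POLR3A and 93 bp from the start of RPS24, which encodes a protein of the small ribosomal subunit. Only the peak at POLR3A's own start is used in the values at starts above. With the strongest peak by the 5000 bp rule instead, the median fold of the Pol III members was 17.6. The peaks of POLR1B at CHCHD5 and of GTF3C2 at MPV17 (2767 bp beyond the gene, fold 9.95) are of the same kind, and these were the 3 members with more than 1 peak. The 4577 bp of the CHCHD5 peak and the 4441 bp of the RPS24 peak are the distances nearest to the 5000 bp limit from inside. From outside, the nearest are the 18401 bp of UBTF, the 21846 bp of BRF2 and the 37065 bp of POLR3GL.

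The subcomplex of POLR3C, POLR3F and POLR3G, which meets TFIIIB at the start of transcription, had lower values than the core. POLR3C had a fold of 10.7, POLR3G one of 8.69 and POLR3F one of 5.44. POLR3K, which encodes the subunit for RNA cleavage and termination, had a fold of 7.08. Each of these 4 peaks was also within 1000 bp of the start or end of a neighbouring gene, RNF115 for POLR3C, MBLAC2 for POLR3G, DZANK1 for POLR3F and SNRNP25 for POLR3K.

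The alternative subunits POLR3G and POLR3GL, of which an enzyme carries either, differed in the list. POLR3G, known as the form of stem cells and many tumours, had a peak with a −log10 q-value of 111.1 on chromosome 5 from 90473688 to 90475095. Its summit lay 814 bp inside POLR3G and 28 bp from an end of MBLAC2, so the peak can be read for either gene. POLR3GL, the widely expressed form, had no peak. Its promoter, printed above, holds none of the 3 E-box words, and the summits on either side of it were 37065 bp away, at RBM8A with a fold of 11.8, and 73167 bp away.

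TFIIIB, the factor that recruits polymerase III, is made of TBP, BDP1 and either BRF1 or BRF2. Of the 3 TFIIIB genes among the members, BRF1, BRF2 and BDP1, 1 had a peak. BRF1, used at tRNA and 5S genes, had a peak of fold 14.9 and −log10 q-value 61.2 (chromosome 14, 105300548 to 105301319). The summit lay 248 bp downstream of the second of 5 RefSeq starts and 14836 bp inside the longest form of the gene. Counted from annotated ends alone, BRF1 would have no summit within 1000 bp. BRF2, which replaces BRF1 at promoters of the U6 type, had none, with the nearest summit 21846 bp away at a fold of 5.12. BDP1, which is part of both forms of TFIIIB, had none within 530434 bp.

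The 6 genes for TFIIIC, which recognises the internal promoters of tRNA genes, all had a peak, and 5 of them lay above the third quartile of all genes with a summit at the start (12.6). GTF3C3 had the highest fold of all members, 31.9, which is rank 202 of the 9818 peaks (chromosome 2, 196799308 to 196800067, summit 57 bp upstream of the start). GTF3C2 had the next fold, 28.6, and the highest −log10 q-value of all members, 512.9, rank 134 of the list (chromosome 2, 27356309 to 27357519, summit 305 bp upstream). GTF3C6 had a fold of 23.4, GTF3C4 one of 19.1 and GTF3C5 one of 14.4. The median over the 6 genes was 21.2, against 13.8 for the 8 Pol III subunits, 14.2 for the 7 Pol I subunits and 8.47 for the 4 SL1 genes with a peak at the start. GTF3C1, the largest TFIIIC subunit and one that contacts DNA, was the exception, with the lowest fold of all 28 members, 5.28, the lowest −log10 q-value, 17.5, and the narrowest peak, 417 bp. None of these differences between groups was tested.

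GTF3A, the zinc finger factor of 5S genes, had a fold of 21.7 and a −log10 q-value of 147.9, with the summit 91 bp downstream of the start (chromosome 13, 27424389 to 27425106). MAF1, the repressor of polymerase III, had a fold of 8.42 and a −log10 q-value of 146.6. Its summit lay 646 bp outside MAF1 and 42 bp from an end of SHARPIN, so this peak too can be read for either gene.

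Among the 24 members with a peak and a RefSeq start, the summit lay a median of 68.5 bp from the nearest start, against 129 bp over the 6559 protein-coding genes treated the same way. It was upstream of the start in 13 and downstream in 11. Of the 29 members with a RefSeq start, 15 (51.7%) had a summit within 100 bp, against 18.1% of 15812 protein-coding genes. Within 500 bp the counts were 9 of 13 Pol I members and 14 of 16 Pol III members, against 38.3% of those genes. Between 1000 and 10000 bp no further member was gained.

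**Figure D2:**
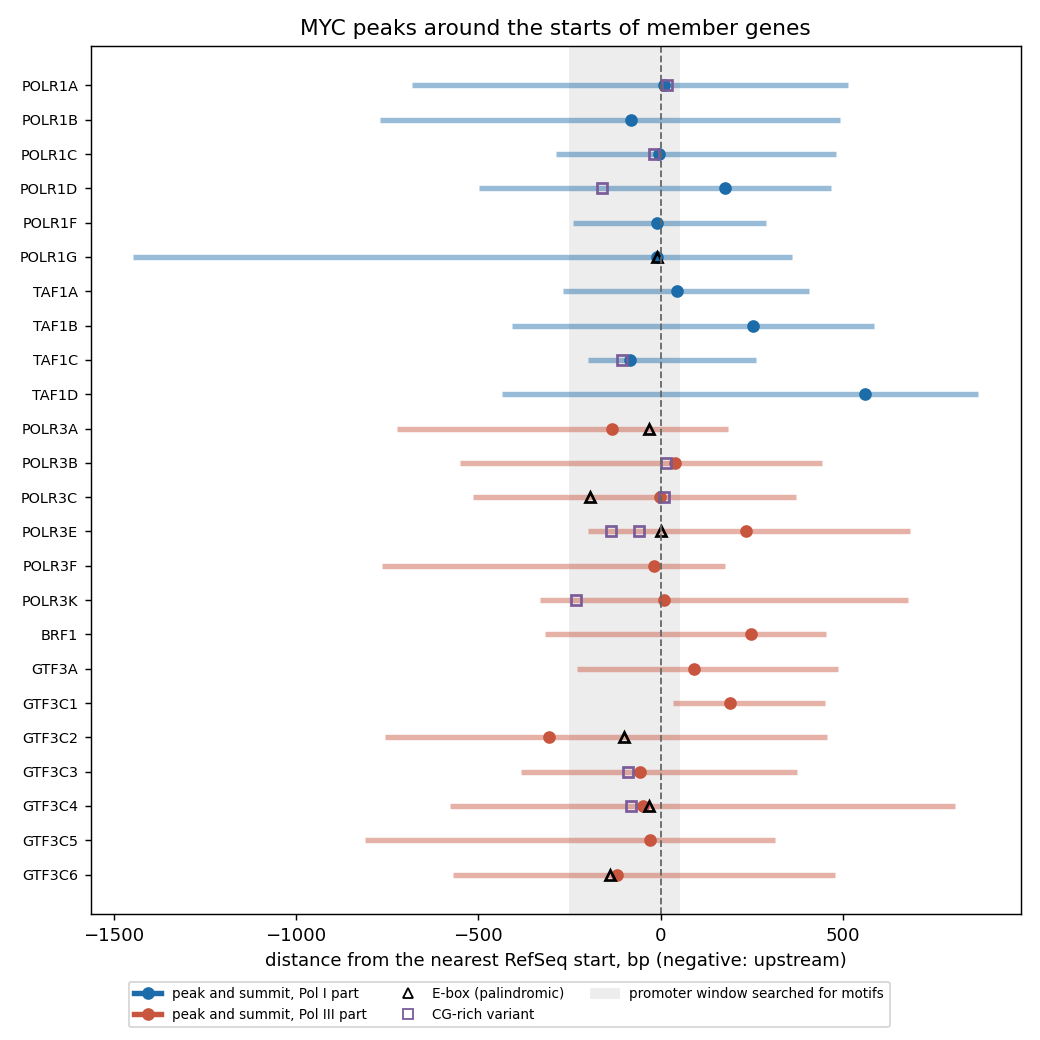
Peaks (bars) and summits (filled circles) of the 24 members with a peak and a RefSeq start, by distance in bp from the nearest start, negative upstream. Triangles mark CACGTG and squares CACGCG or CGCGTG in the shaded window of 250 bases before to 50 bases after the start; the summits of POLR1G, GTF3C4 and GTF3C6 lie on or next to an E-box, and the summit of TAF1D lies 561 bp downstream.

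**Figure D3:**
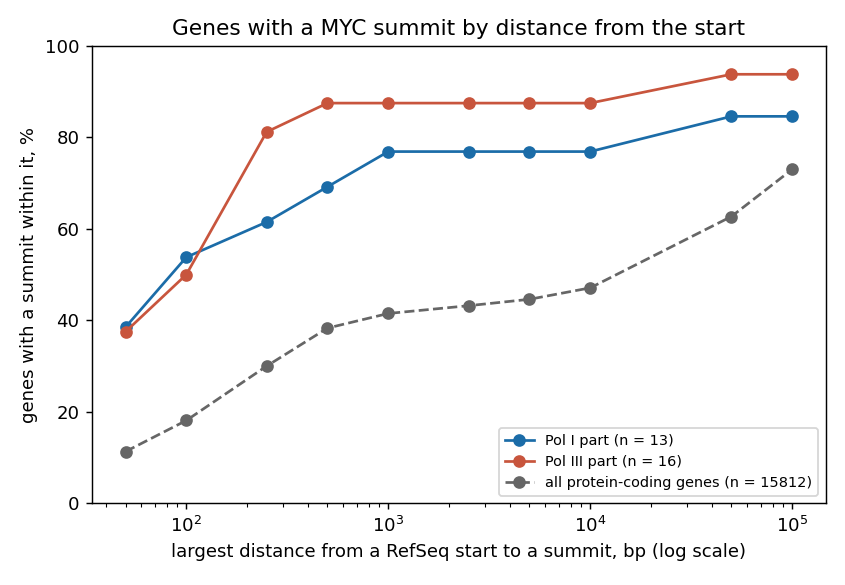
Share of genes with a summit within a given distance of a RefSeq start (x axis, log scale, bp), for 13 Pol I members, 16 Pol III members and 15812 protein-coding genes. Both member lines lie above the line of all genes at each distance plotted, and both are flat between 1000 and 10000 bp.

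Peaks at the start of a member that were also near another protein-coding gene were counted as shared. Of the 28 members with a peak at the start, 11 shared it with another protein-coding gene whose start also lay within 1000 bp of the summit (an annotated end where no start was available), 4 in the Pol I part and 7 in the Pol III part, against 27.5% of all genes with such a peak. Besides the genes named above, POLR1A shared its peak with PTCD3, a mitochondrial translation factor, POLR1C with YIPF3, POLR1G with PPP1R13L, GTF3C1 with KATNIP and GTF3C4 with DDX31, a nucleolar helicase, whose start lay 3 bp from the summit. In the Pol III part the 7 shared peaks had a median fold of 8.42 (from 5.28 to 19.1) and the 10 others a median of 20.7 (from 14.4 to 31.9). GTF3C4, at 19.1, was the only shared peak of that part inside the range of the others. In the Pol I part the order was the other way round, with a median of 15.7 for the 4 shared peaks and 9.11 for the 7 others. Over all protein-coding genes the medians were 8.82 for shared and 8.15 for other peaks. Which gene a shared peak acts on was not tested.

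E-box words were searched on both strands in the first RefSeq window of each of the 29 members. CACGTG is its own reverse complement, CACGCG was also read as CGCGTG, and CATGTG also as CACATG. The canonical word was present in 7 of 29 members (24.1%), against 8.87% of 15812 protein-coding genes and 12.3% of the 6559 with a summit within 1000 bp of a start. It was found in 1 of 13 Pol I members, POLR1G, and in 6 of 16 Pol III members, POLR3A, POLR3C, POLR3E, GTF3C2, GTF3C4 and GTF3C6. CACGCG was present in 10 of 29 members (34.5%), against 14.8% of all genes and 20.8% of those with a summit. CATGTG was in 0 of 29 first windows, against 8.43% of all genes and 5.73% of those with a summit. Over any listed window it was in 1 of 29 members (3.45%), against 11.5% of all genes and 8.74% of those with a summit. The general word CANNTG includes CACGTG and CATGTG. It was in 18 of 29 members (62.1%), against 64.5% of all genes and 58.4% of those with a summit. By part it was in 4 of 13 Pol I members and 14 of 16 Pol III members.

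The distance between word and summit was read over all listed windows of a gene, not only the first, where a window held both. POLR3B, for CACGCG, and POLR1B, for CATGTG, enter only through a window other than the first. For CACGTG the distance from the middle of the word to the summit was at most 50 bp in 3 of 5 such members, against 71.6% of 641 genes. These were POLR1G, GTF3C4 at 16 bp and GTF3C6 at 18 bp, whose words are marked in the sequences above. GTF3C2 and POLR3E also hold CACGTG but did not enter, since their summits lay outside the window. The word was 204 bp from the summit in GTF3C2 and 234 bp in POLR3E. For CACGCG it was at most 50 bp in 7 of 8 such members, against 61.7% of 962 genes, among them POLR1A at 8 bp, POLR3C at 12 bp and POLR1C at 14 bp. For CATGTG it was at most 50 bp in 0 of 1 such member, POLR1B at 110 bp, against 47% of 234 genes. GTF3C3, with the highest fold of all members, holds no CACGTG in its window and has the CG-rich variant 32 bp from its summit. TAF1D and GTF3A have high folds and neither word in their windows, and RRN3 and UBTF hold the CG-rich variant without a peak. RRN3 lay in a stretch of 4.43 Mb without any summit, where the placing of reads was not tested. A match is a description of the letters in the window, and no match says only that they are not in these 300 bases.

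Of the 6 members without a peak, 3 lay in long stretches with no summit at all. POLR1H, which encodes the subunit for RNA cleavage by polymerase I, is annotated on chromosome 6 from 30060062 to 30064907, in the major histocompatibility region. The stretch around it without a summit was 5.17 Mb long and held 173 protein-coding genes, more than any other of the 9795 stretches between neighbouring summits. RRN3 lay in a stretch of 4.43 Mb on chromosome 16 with 29 protein-coding genes, and BDP1 in one of 2.92 Mb on chromosome 5 with 27, ranks 21 and 25 by number of genes. A stretch held a median of 1 protein-coding gene, and 39 stretches held 20 or more. The lack of a peak at these 3 members was thus shared by 172, 28 and 26 other protein-coding genes beside them. Whether reads could be placed in these regions was not tested. UBTF, POLR3GL and BRF2 lay in stretches of 138.2, 124.4 and 109.1 kb with 5, 5 and 2 protein-coding genes, the member included.

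**Figure D4:**
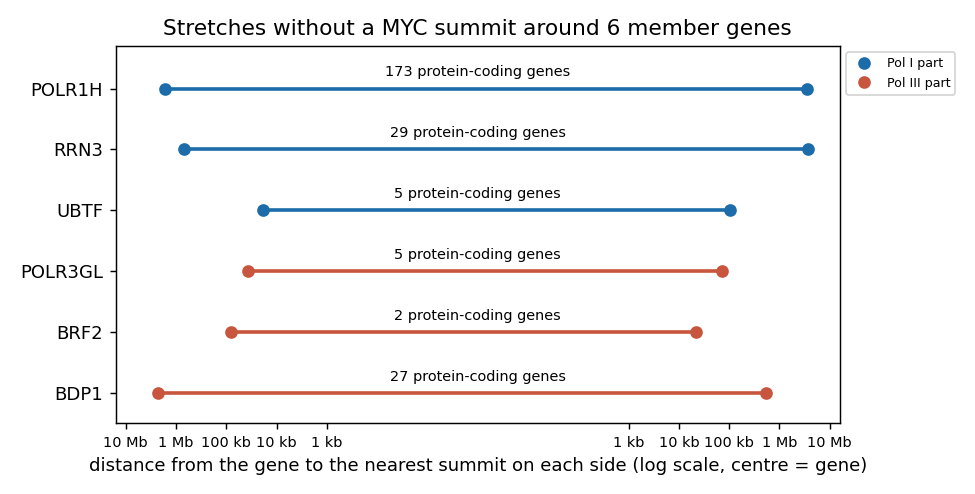
Distance from each of the 6 members without a peak to the nearest summit on either side (log scale, the gene at the centre), with the number of protein-coding genes in the stretch, the member included. POLR1H, RRN3 and BDP1 lie in stretches of 2.92 Mb or more with 27 to 173 genes, and UBTF, POLR3GL and BRF2 in stretches of 138.2 kb or less with 2 to 5 genes.

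Other genes of the pathway were read from a list of 27. A summit lay within 1000 bp of a start at 20 of them (74.1%), against 39.0% of all protein-coding genes. The median fold of the 20 was 9.18, against 8.35 over all protein-coding genes with such a summit. By the 5000 bp rule 22 had a peak (81.5%), against 47.7% of all protein-coding genes. All 6 t-UTP genes, whose products couple ribosomal DNA transcription to processing of its product, had a peak, with a median fold of 14.0. WDR43 had the highest at 98.9, UTP4 had 21.3 and HEATR1 15.8. Of the 6 cofactors of polymerase I, 3 had a peak, TCOF1, encoding treacle (13.9), NOLC1 (8.88) and the deacetylase gene SIRT7 (4.73), while TTF1, the terminator protein, CAVIN1 and BAZ2A had none. Of the 7 genes for SNAPc and its partners at U6-type promoters 6 had a peak, led by ZNF143 (14.4), and SNAPC2 had none. TBP, which is part of SL1 and of TFIIIB, had a fold of 9.84. CRCP, a Pol III subunit outside the 34 members, had a fold of 13.0. Of the 5 subunits that all nuclear polymerases share, POLR2H (9.29) and POLR2K (7.05) had a peak at a start and POLR2E, POLR2F and POLR2L had none.

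Subunits found in polymerase II alone were read in the same way. A peak at the start was found at 15 of the 17 subunit genes in the member list. It was found at 5 of 7 subunits of polymerase II alone (71.4%), with a median fold of 12.3, and at 39.0% of all protein-coding genes. By the 5000 bp rule a peak was found at 82.4% of the 34 members and 6 of 7 subunits of polymerase II alone (85.7%). The share of all protein-coding genes was 47.7%. The only peak of POLR2G lay 4920 bp beyond the gene and 234 bp from a start or end of TAF6L. POLR2I had the highest fold, 36.3, above every member, with a summit 4 bp from an end of TBCB. POLR2D had 16.1 and POLR2C 12.3. Of the largest subunits, POLR1A had a fold of 17.7 and POLR3A one of 16.8, against 7.51 for POLR2A. These counts are too few for an order between the 3 enzymes to be read, and none was tested.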

How the data were processed

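The 2 MYC IP libraries and 1 input are represented by 1 peak list. Per the submitters' processing notes, cutadapt, Bowtie2, SAMtools, Picard and MACS2 were used with the builds hg19, mm10 and hg38. Not given in the sources used here are their roles and settings, the use of mouse reads and whether libraries were pooled. The deposited file gives for each peak the authors' fold enrichment, a linear ratio, their −log10 p-value and −log10 q-value, and a score that is about 10 times the −log10 q-value in whole numbers. Only fold and −log10 q-value were used. The list numbers its peaks without a break. The depth is unknown.

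Spans, starts and promoter sequences came from RefSeq (GRCh38.p14, a patch release of the assembly called hg38). A gene takes its peak with the highest −log10 q-value, from all peaks within 5000 bp of the span or within 1000 bp of a start. Starts were available for 15812 of 19970 protein-coding genes and 29 of 34 members, and annotated ends were used for the rest. The assignment code was run on simulated peaks placed near listed starts. This checks only that its windows find peaks placed inside them, not which gene a peak belongs to. Python 3.11.15, pandas 2.3.3 and matplotlib 3.10.9 were used.

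The members, lists and motifs were chosen with earlier results of these data known. All members are named. A gene of the wider pathway list is not reported here. Promoters shown are those of the 3 strongest members per part that have a RefSeq window, and of 2 members without a peak. POLR1E and POLR3D had higher −log10 q-values than some of these but no window. The choice also left out chromosome 8, where no member has a window. Of the other genes, those with a value are examples chosen after their values were seen. No test was made, since the list has no replicate values. Alternatives were other windows, any base of the peak, annotated ends, a −log10 q-value of at least 10, the stronger 50% of peaks, ranking by fold and the placing of shared subunits.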

Additional observations from a re-analysis of the deposited data

How the results depend on the processing

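All 32 other settings tried left the counts within 1.5 times, and the medians inside the 95% order-statistic interval, of the values reported. These limits are loose. The intervals ran from 7.81 to 17.3 for Pol I members and from 8.69 to 21.7 for Pol III members. Counts of 11 of 14 and 17 of 20 cannot rise 1.5 times. Some settings could not change a value, since members shared no peak and the lowest −log10 q-value of a member at a start was 17.5. By the 5000 bp rule the counts ran from 10 to 11 of 14 Pol I members and from 15 to 17 of 20 Pol III members. At starts they ran from 9 to 11 and from 14 to 17, lowest with a window of 250 bp, where 27.7% of all protein-coding genes had a summit. In the stronger 50% of peaks POLR1D, POLR3F and GTF3C1 had none, and 10 Pol I and 15 Pol III members kept a peak at a start, where 22.1% of all protein-coding genes did. With annotated ends in place of starts, POLR1D and BRF1 had none. A window of 10000 bp around the gene added no member. The median fold of the Pol III members was 14.9 with POLR1C and POLR1D added, against 17.6 without. No paired analysis was possible because the list holds no values per library, and for the same reason no replicate could be left out.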

Other observations

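Small RNA genes lay within or beside several members. TAF1D, which had the highest −log10 q-value of the Pol I part, contains 8 small nucleolar RNA genes, among them SNORA25, SNORA40 and SNORD6, and the miRNA gene MIR1304. The nearest of the 8 to its summit was SNORA40, at 5698 bp. The summit of POLR3E lay 423 bp from TRL-AAG2-4, a leucine tRNA gene on chromosome 16 from 22297140 to 22297221, just outside the annotated POLR3E span, so that a product of polymerase III and a subunit of it are annotated beside the same peak. The summit of POLR3D lay 294 bp from MIR320A, annotated just outside that gene. Which of the neighbouring genes such a peak acts on was not tested.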
